A study of Mus musculus with 16 samples.

Results

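The 8 transcripts followed here in kidney RNA mark fat cells: Adipoq, Cfd, Retn, Plin1, Cidec, Ucp1, Fabp4 and Car3. They were chosen by gene symbol, with earlier results of these data known, and make up 8 of the 40879 symbols counted. All 8 had counts and all 8 passed the filter on low counts, which left 14665 genes to be tested. The 16 libraries came from kidneys of wild-type male C57BL/6 mice. Old + PM (3 libraries) were aged mice given Palmijihwang-tang (PM), and Old + YM (3 libraries) were aged mice given Yukmijihwang-tang (YM), both herbal formulas. Each was swallowed at a daily dose of 100 mg/kg, 5 days weekly, between 19 and 24 months. Old (5 libraries) were untreated aged mice whose age at sampling the labels leave out, and Young (5 libraries) were untreated mice of 3 months. Since one passage of the labels names YM where it describes the PM dose, groups follow the sample names. Nothing states that libraries came from separate mice, and p-values then measure only the spread between these libraries.

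Fat cells store triglyceride in a droplet coated with perilipins, release it as fatty acids on demand and secrete hormones into the blood. Brown and beige fat cells also burn fatty acids for heat through the uncoupling protein UCP1. The kidney lies in a fat pad that continues into its hilum, where the vessels and the urine-collecting pelvis leave the organ, and in the mouse this pad holds cells of both kinds.

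The counts come from 3' sequencing, which reads each transcript near its poly(A) tail. Totals were 8223008 to 10914515 counts per library, so that 1 count was worth 0.122 CPM (counts scaled to library size, as edgeR computes them) at the lowest total and 0.0916 CPM at the highest. CPM values below are instead on library sizes scaled by TMM, where 1 count was worth 0.0885 CPM (Old + PM 2) to 0.131 CPM (Young 5). TMM factors were 0.850 to 0.963 in Young and 0.972 to 1.12 in the aged libraries. Genes that define kidney segments, 12 in all, summed to 7991 to 11086 CPM in every library. In bulk RNA, fewer cells of a type and less RNA per cell cannot be told apart.

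The stretch just before the transcription start is shown for 3 genes, because Adipoq and Cfd had similar patterns over the libraries and Ucp1 departed from both. Each window holds the 250 bases before the RefSeq start on build GRCm38.p6, 5′ to 3′ on the gene's strand. Letters in capitals match a searched motif.
Adipoq, chr16:23146286-23146535, plus strand: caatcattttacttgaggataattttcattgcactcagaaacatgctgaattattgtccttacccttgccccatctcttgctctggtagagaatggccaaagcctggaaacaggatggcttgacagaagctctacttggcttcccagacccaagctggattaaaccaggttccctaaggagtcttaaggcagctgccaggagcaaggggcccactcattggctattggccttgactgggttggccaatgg
Cfd, chr10:79890603-79890852, plus strand: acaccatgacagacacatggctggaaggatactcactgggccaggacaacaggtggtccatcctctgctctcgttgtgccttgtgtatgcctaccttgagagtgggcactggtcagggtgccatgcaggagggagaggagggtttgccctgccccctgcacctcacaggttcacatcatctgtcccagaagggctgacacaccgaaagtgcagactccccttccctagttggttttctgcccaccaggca
Ucp1, chr8:83290098-83290347, plus strand: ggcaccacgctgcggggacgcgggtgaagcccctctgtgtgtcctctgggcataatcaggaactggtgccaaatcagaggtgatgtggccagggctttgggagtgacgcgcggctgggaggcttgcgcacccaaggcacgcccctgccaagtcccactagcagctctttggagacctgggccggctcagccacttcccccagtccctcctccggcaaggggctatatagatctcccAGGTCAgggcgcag
Windows were found for 6 of the 8 genes, and both strands were searched for 4 motifs. The nuclear receptor core motif AGGTCA stood 14 to 9 bases before the start of Ucp1 and in no other of these windows, against 14.0% of all 32851 windows. Its direct repeat AGGTCANAGGTCA, which contains the core motif and is the form bound by PPARG, was in none of them and in 0.0335% of all. TTGCGCAA, the palindrome bound by C/EBP factors, was in none of them and in 0.164% of all, and the TATA box letters TATAAA were in none of them and in 12.4% of all. A missing match says only that these letters are not in this stretch.

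The 3 secreted proteins came first. Adipoq encodes adiponectin, a hormone that raises insulin sensitivity, and lies on chromosome 16 (23146536 to 23158028, plus strand, GRCm38). It had 36, 0 and 1 counts in Old + PM 1 to 3, 5, 39 and 18 counts in Old + YM 1 to 3, 0, 12, 2, 16 and 0 counts in Old 1 to 5, and 1, 37, 19, 10 and 22 counts in Young 1 to 5. Each group thus held libraries with 10 or more counts beside libraries with 5 or fewer, and all groups overlapped.

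Cfd encodes adipsin (complement factor D), the serine protease that starts the amplification loop of the alternative complement pathway (chromosome 10, 79890853 to 79892655, plus strand). Its counts were 176, 0 and 5 in Old + PM, 83, 319 and 201 in Old + YM, 1, 53, 9, 135 and 1 in Old, and 4, 90, 7, 82 and 162 in Young, in the order of the replicate numbers. No library lay between 9 and 53 counts: 9 of the 16 had 53 or more and 7 had 9 or fewer. Of those with 53 or more, 1 of 3 was in Old + PM, 3 of 3 were in Old + YM, 2 of 5 in Old and 3 of 5 in Young.

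Retn, which encodes resistin, a hormone secreted by mouse fat cells, was scarce (chromosome 8, 3655770 to 3660110, plus strand). It had 8, 0 and 0 counts in Old + PM, 7, 13 and 11 in Old + YM, 0, 4, 0, 11 and 0 in Old, and 0, 5, 6, 6 and 10 in Young. Its 6 libraries at 0 were Old + PM 2, Old + PM 3, Old 1, Old 3, Old 5 and Young 1, and a count of 0 allows up to 0.265 to 0.313 CPM in these (3 counts, counting error only).

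Both droplet proteins followed. Plin1 encodes perilipin-1, which coats the droplet and gates its lipases (chromosome 7, 79720218 to 79732903, minus strand). It had 6, 0 and 4 counts in Old + PM, 1, 15 and 10 in Old + YM, 0, 5, 0, 3 and 0 in Old, and 0, 17, 0, 21 and 14 in Young. Cidec encodes a protein that fuses droplets into a single large one (chromosome 6, 113424634 to 113435760, minus strand). It had 18, 4 and 5 counts in Old + PM, 5, 20 and 17 in Old + YM, 0, 6, 0, 2 and 4 in Old, and 2, 15, 5, 6 and 8 in Young. No Old library exceeded 5 counts of Plin1 or 6 of Cidec, and the groups overlapped.

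**Figure D1:**
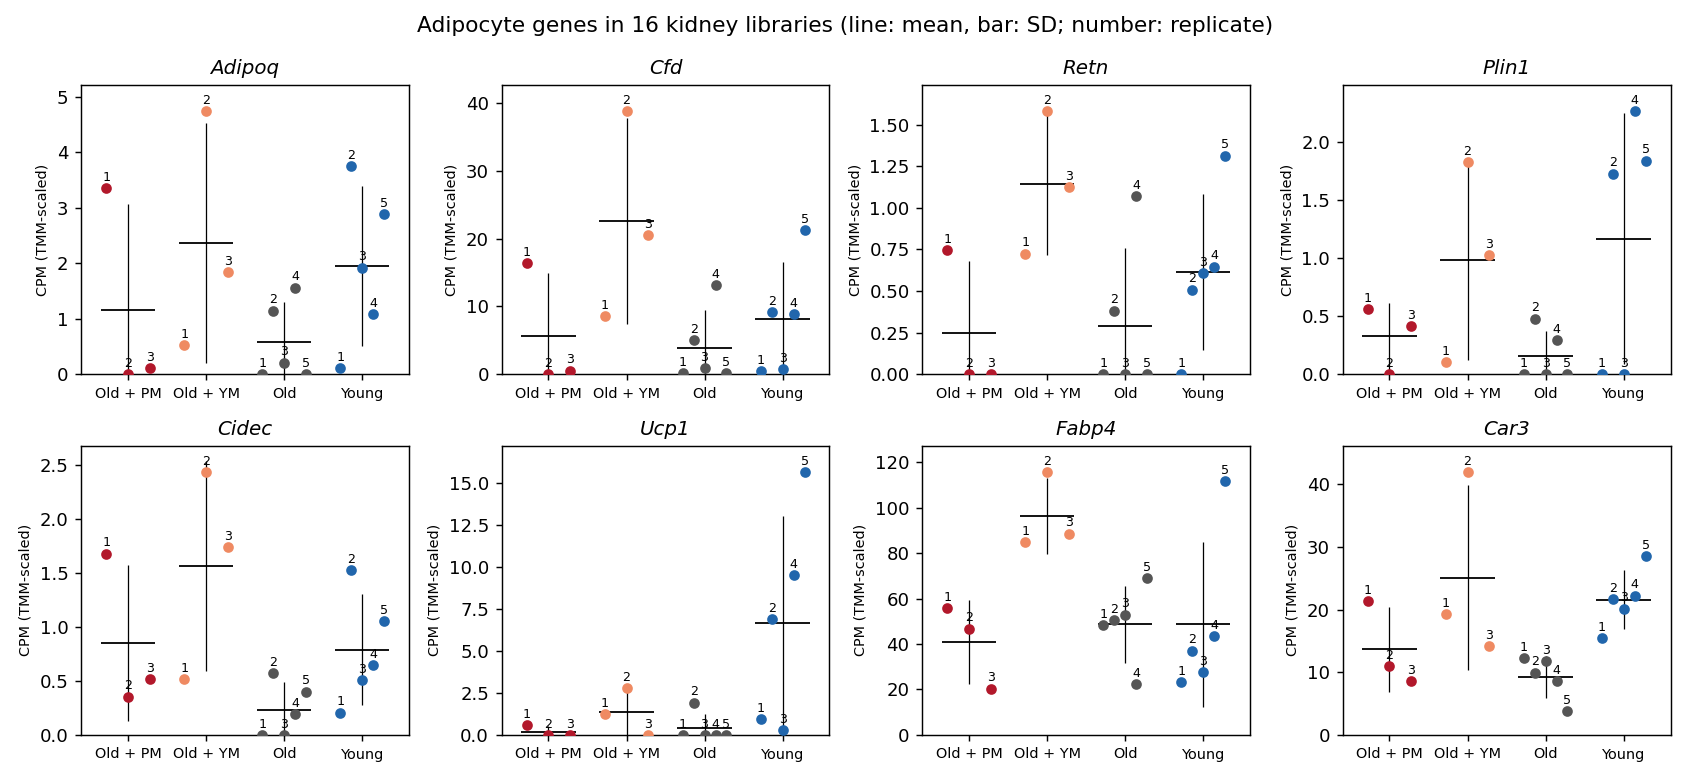
TMM-scaled CPM (y axis) of the 8 genes in each library, by group (x axis). Points are libraries with their replicate number, lines are group means and vertical bars SD, cut off at 0 where the mean minus SD is negative. Old + YM 2 was the highest of the 16 libraries for 6 genes, while Plin1 was highest in Young 4 and Ucp1 in Young 5.

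Ucp1, the heat-producing protein of brown and beige fat cells (chromosome 8, 83290352 to 83298452, plus strand), had its highest values in Young libraries. It had 6, 0 and 0 counts in Old + PM, 12, 23 and 0 in Old + YM, 0, 20, 0, 0 and 0 in Old, and 9, 68, 3, 88 and 119 in Young. All 5 Young libraries had counts, and the 3 highest values of all libraries were Young 5, Young 4 and Young 2 with 15.6, 9.49 and 6.91 CPM. Of the 11 aged libraries 7 were at 0.

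The share of Ucp1 in the counts of Ucp1 and Adipoq together was set out for the 9 libraries with at least 10 Adipoq counts. This cut left out Old + YM 1, with 12 counts of Ucp1 beside 5 of Adipoq, and Young 1, with 9 beside 1. The rest of those left out had no count of Ucp1. The share was 14.3% (exact binomial 95% interval 5.43 to 28.5) in Old + PM 1 and 37.1% (25.2 to 50.3) in Old + YM 2. In Old + YM 3 it was 0 of 18 counts, which allows up to 18.5%. Old libraries differed from each other: Old 2 had 62.5% (43.7 to 78.9), and Old 4 had 0 of 16 counts, which allows up to 20.6%. Young 4, Young 5 and Young 2 had 89.8% (82.0 to 94.997), 84.4% (77.3 to 90.0) and 64.8% (54.8 to 73.8), while Young 3 had 13.6% (2.91 to 34.9). Young 3 was also low in Cfd, with 7 counts beside 19 of Adipoq. These intervals cover counting error only, and reads without molecular identifiers are not independent molecules.

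Old + YM 3 and Old 4 thus held 201 and 135 counts of Cfd with no count of Ucp1. They also had 9 and 6 counts of Cidea and none of Cox8b. Cidea, a droplet protein, and Cox8b, a subunit of cytochrome oxidase, are both typical of brown and beige fat. Cidea reached 105, 66 and 63 counts in Young 4, Young 2 and Young 5, against 23 in the highest aged libraries, Old + PM 1 and Old + YM 2.

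Fabp4 and Car3 were present in every library. Fabp4 encodes the fatty acid carrier of fat cells and is also made by capillary endothelium and macrophages (chromosome 3, 10204088 to 10208576, minus strand). It had 55.7, 46.7 and 20.4 CPM in Old + PM 1 to 3, 85.0, 115.7 and 88.6 CPM in Old + YM 1 to 3, 48.2, 50.4, 52.9, 22.2 and 69.1 CPM in Old 1 to 5, and 23.2, 37.1, 27.6, 43.4 and 111.7 CPM in Young 1 to 5. Old + YM libraries were all above the Old ones, and Young 5 stood alone among Young. Libraries without Adipoq also had Fabp4: Old 5, with no Adipoq count, had the highest Fabp4 of the Old group, and Old 4, with the highest Adipoq of that group, had the lowest. Old 5 was also the library with the most macrophage RNA, 556.6 CPM over 10 marker genes against 108.5 to 250.6 CPM in the other 15, and endothelial markers summed to 549 to 736 CPM in all libraries. Their part in the level of Fabp4 was not tested.

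Car3 encodes carbonic anhydrase 3, an abundant cytosolic enzyme of fat cells that skeletal muscle and liver also make (chromosome 3, 14863512 to 14872523, plus strand). It had 21.3, 10.97 and 8.59 CPM in Old + PM 1 to 3, 19.3, 42.0 and 14.1 CPM in Old + YM 1 to 3, 12.2, 9.95, 11.8, 8.58 and 3.80 CPM in Old 1 to 5, and 15.5, 21.6, 20.1, 22.2 and 28.5 CPM in Young 1 to 5. Every Old library lay below every Young one, and every Old + YM library above every Old one. Skeletal muscle markers were near 0, with 0.487 to 3.62 CPM summed over 10 genes and no count of Myh1 or Myh2 in any library. Liver markers summed to 359 to 708 CPM in the 5 Old and 1102 to 1259 CPM in the 5 Young libraries. Most of this sum was Cyp2e1 and Ttr, with means of 504.5 and 192.7 CPM over all libraries and lowest values of 260.3 and 43.1 CPM. The rest averaged from 2.63 CPM (Ahsg) to 47.8 CPM (Serpina1a), with Alb at 19.7 CPM. Which cells carried these transcripts was not tested. Among the 8 liver genes Ttr, which encodes transthyretin, stood at 60.4 ± 20.4 CPM in Old, against 479 ± 42.1 CPM in Young (n = 5 each). The liver genes did not move together: Ttr and Cyp2e1 fell (Cyp2e1 log2 -0.71, adjusted p = 0.0152), while 5 of the 8 had positive log2 changes that did not pass, from 0.21 for Ahsg to 1.07 for Fgb, and the median of the 8 was 0.44. The part of liver or muscle transcripts in the Car3 result was not tested.

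**Figure D2:**
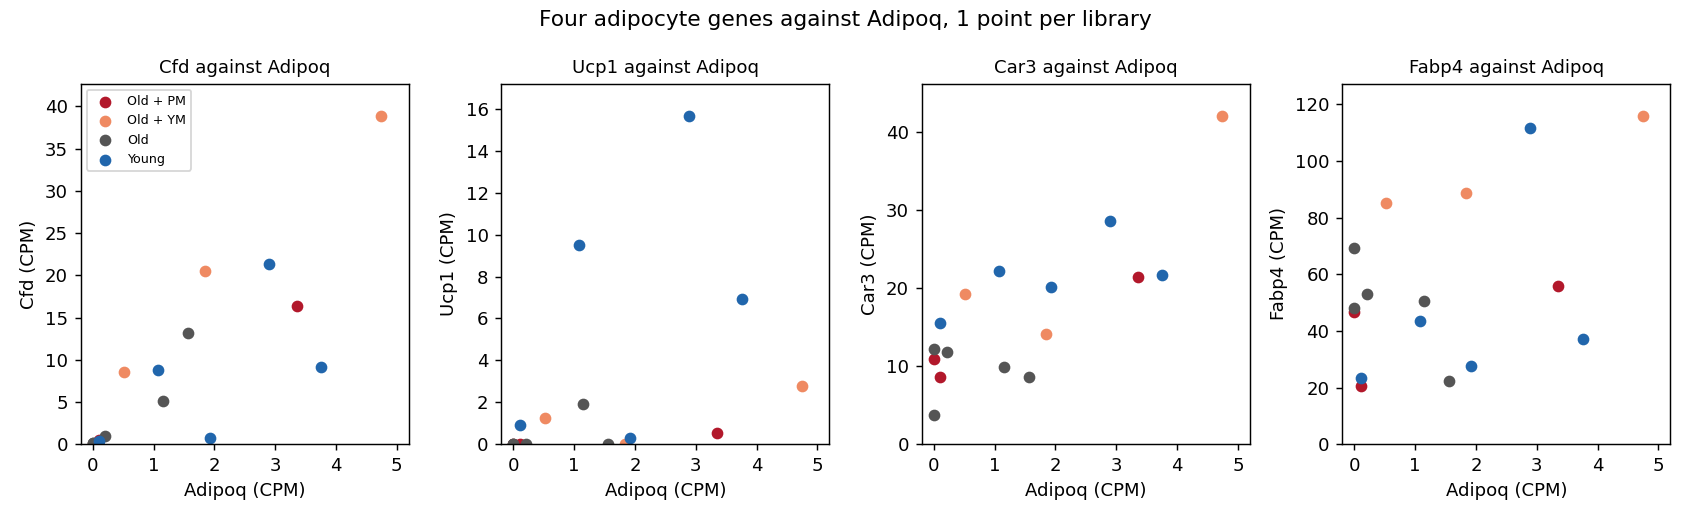
Cfd, Ucp1, Car3 and Fabp4 (y axes, CPM) against Adipoq (x axes, CPM) in the 16 libraries, coloured by group. The highest Adipoq and Cfd values were both in Old + YM 2, the 3 highest Ucp1 values were in Young libraries, and Car3 and Fabp4 were present where Adipoq was at 0.

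The comparison of Old with Young addressed natural ageing of the kidney. Of the 8 genes 1, Car3, fell in Old and none rose, while 13.6% of all tested genes passed (7.13% lower and 6.47% higher in Old). Car3 averaged 9.27 ± 3.40 CPM in Old and 21.6 ± 4.68 CPM in Young (SD, n = 5 each), a log2 fold change of -1.22 (SE 0.35, edgeR adjusted p = 0.0302). The groups did not overlap for Car3 alone among the 8, against 9.19% of all tested genes (4.21% higher and 4.97% lower in Old). The call was lost without any 1 of Young 2, Young 3, Young 4, Young 5, Old 2, Old 4 or Old 5 (adjusted p from 0.0565 to 0.0703), with no filter (0.0775) and with the replicate number as a block (0.0609), and the log2 change stayed between -1.34 and -1.02.

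Ucp1 had the largest fitted change of the 8 and did not pass. It averaged 0.383 ± 0.856 CPM in Old and 6.66 ± 6.36 CPM in Young (n = 5 each), a log2 fold change of -4.03 (SE 1.35, edgeR adjusted p = 0.0658). The value rests on few libraries, since Old 2 held all 20 Old counts. Ucp1 passed without Old 2 (adjusted p = 0.0330, with all remaining Old libraries at 0), without Young 3 (0.0496), with the block (0.0415) and without robust dispersions (0.0276), and its adjusted p was 0.146 in DESeq2.

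The other genes did not pass. Log2 fold changes of Old over Young were -2.78 (SE 1.15) for Plin1, -1.68 (SE 0.80) for Cidec, -1.70 (SE 1.13) for Adipoq, -1.03 (SE 1.31) for Cfd and -0.998 (SE 1.02) for Retn, with adjusted p from 0.120 to 0.668. Fabp4 averaged 48.6 ± 16.9 CPM in Old and 48.6 ± 36.2 CPM in Young, with a log2 change of 0.01 (SE 0.44) whose sign turned under RLE scaling, and without Young 5 it was 0.59. The log2 change was negative for 7 of the 8, with a median of -1.45 against 0.02 over all tested genes. Most of the 8 rose and fell together over the libraries. Signs that they share, here and in the comparisons below, are therefore not separate results.

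**Figure D3:**
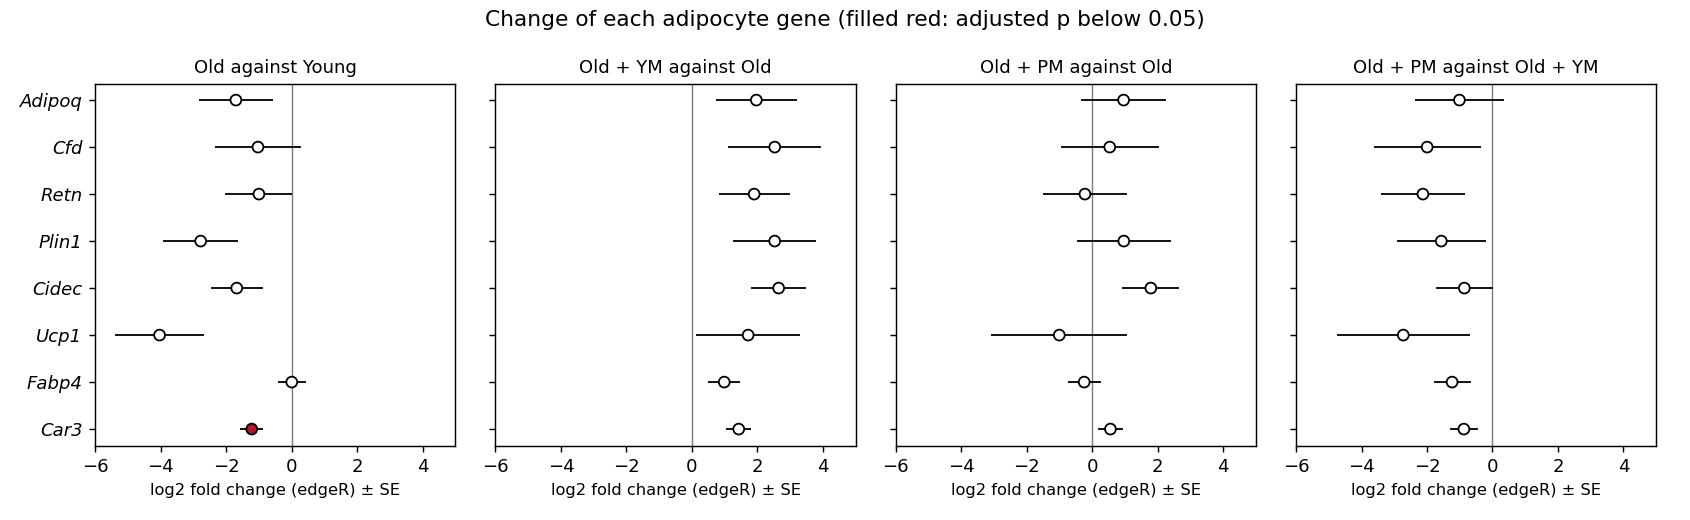
Log2 fold change and SE from edgeR (x axes) of the 8 genes (y axis) in the 4 comparisons, filled red where the adjusted p was below 0.05. Only Car3 in Old against Young is filled. All 8 values are positive in Old + YM against Old and negative in Old + PM against Old + YM.

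The comparison of Old + YM with Old asked what YM changed in the aged kidney. None of the 8 genes passed, and 0.0205% of all tested genes did (3 of 14665, with 1390 at an unadjusted p under 0.05). All 8 had a positive log2 change, with a median of 1.94 against -0.03 over all genes tested. Car3 averaged 25.1 ± 14.8 CPM in Old + YM (n = 3) and 9.27 ± 3.40 CPM in Old (n = 5), a log2 change of 1.43 (SE 0.39, edgeR adjusted p = 0.289). It passed in DESeq2 only (adjusted p = 0.0331), and without Old + YM 2 the change was 0.85.

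Fabp4 averaged 96.4 ± 16.8 CPM in Old + YM and 48.6 ± 16.9 CPM in Old (log2 0.99, SE 0.49, adjusted p = 0.553). Car3 and Fabp4 were the members whose groups did not overlap, against 9.1% of all tested genes (5.15% higher and 3.95% lower in Old + YM). Cidec averaged 1.56 ± 0.970 CPM in Old + YM and 0.234 ± 0.252 CPM in Old (log2 2.65, SE 0.84, adjusted p = 0.324), and Cfd averaged 22.6 ± 15.2 CPM in Old + YM and 3.87 ± 5.58 CPM in Old (log2 2.53, SE 1.42, adjusted p = 0.599). The remaining 4, Adipoq, Plin1, Retn and Ucp1, had log2 changes of 1.72 to 2.53 and adjusted p from 0.550 to 0.756. These values were smaller without Old + YM 2, by differing amounts. The log2 change was then 0.99 for Adipoq (from 1.97), 0.64 for Ucp1 (from 1.72) and 1.76 for Plin1 (from 2.53). It was 1.90 for Cfd (from 2.53), 2.20 for Cidec (from 2.65) and 1.61 for Retn (from 1.90). Retn was lowest, at 1.60, without Old 1. Ucp1 rested on Old 2 as well, since the other Old libraries were at 0.

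In Old + PM against Old none of the 8 passed and 0% of all tested genes did, with 904 at an unadjusted p under 0.05 and 0 past the threshold in DESeq2. Old + PM 1 held 36 of the 37 Adipoq counts, 176 of the 181 Cfd counts and all 8 Retn counts of its group. Cfd averaged 5.64 ± 9.33 CPM in Old + PM (n = 3) and 3.87 ± 5.58 CPM in Old (n = 5), a log2 change of 0.54 (SE 1.4999, edgeR adjusted p = 0.972), and without Old + PM 1 it was -3.94. Adipoq likewise had a log2 change of 0.96 (SE 1.30, adjusted p = 0.927), and -3.30 without Old + PM 1. All 8 overlapped between the groups, while 4.02% of all tested genes did not (1.92% higher and 2.1% lower in Old + PM). Signs were mixed, 5 positive and 3 negative, with a median of 0.55 against -0.02 over all genes. The comparisons above share the Old libraries with this one.

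In Old + PM against Old + YM none of the 8 passed, and 0% of all tested genes did (1878 at an unadjusted p under 0.05, and 58 past the threshold in DESeq2, with no member among them). Fabp4 averaged 40.9 ± 18.4 CPM in Old + PM and 96.4 ± 16.8 CPM in Old + YM (n = 3 each), a log2 change of -1.23 (SE 0.56, edgeR adjusted p = 0.389). Its groups did not overlap, nor did those of 23.8% of all tested genes. All 8 log2 changes were negative, from -2.72 for Ucp1 to -0.86 for Cidec, with adjusted p from 0.389 to 0.783.

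Likeness to Adipoq was measured as Pearson r of log2 CPM over the 16 libraries, as a description, since all libraries are kidney tissue, differ in depth and fall into high and low ones. Of 14664 other tested genes, Retn and Cfd stood first, with r of 0.91 and 0.88 (Spearman rho 0.82 and 0.88). Cidec (0.76), Plin1 (0.75) and Car3 (0.70) ranked 9, 11 and 24, Ucp1 (0.59) ranked 104 and Fabp4 (0.29) ranked 2097. The 3 libraries at 0 for Adipoq, Old 1, Old 5 and Old + PM 2, lay equally far from the median, and 2 of them were left out. Without Old 5 and Old + PM 2, and with Old 1 kept, r was 0.88 for Retn, 0.84 for Cfd and 0.51 for Ucp1.

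The 10 genes outside the 8 with the highest r were Cnih1, Mid1ip1, Ube2a, Nsun5, Prkar2b, Scd1, Trappc10, Cidea, Col4a5 and Upk2, at 0.74 to 0.79. Some varied little, such as Ube2a with 37.9 to 51.3 CPM. Of the 50 genes most like Adipoq, 8 were members or on the lists of fat cell genes, and of the 100 most like it also 8. An r of this size was thus not particular to genes of fat cells. Values follow for Scd1, Cidea and Upk2 only. Scd1, a fatty acid desaturase, was at 38.8 ± 13.3 CPM in Old + PM, 38.6 ± 11.7 CPM in Old + YM, 24.4 ± 7.69 CPM in Old and 42.2 ± 12.6 CPM in Young. Cidea had 23, 0 and 0 counts in Old + PM, 14, 23 and 9 in Old + YM, 5, 18, 0, 6 and 2 in Old, and 0, 66, 3, 105 and 63 in Young. Upk2, a uroplakin of the urothelium that lines the renal pelvis, had 16, 2 and 2 counts in Old + PM, 8, 15 and 17 in Old + YM, 8, 6, 3, 15 and 4 in Old, and 11, 22, 6, 13 and 7 in Young.

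Other urothelium markers were therefore set beside the fat genes. The 7 markers summed to 13.1, 5.48 and 3.31 CPM in Old + PM 1 to 3, 7.66, 34.9 and 16.7 CPM in Old + YM 1 to 3, 7.87, 7.46, 3.13, 22.9 and 9.59 CPM in Old 1 to 5, and 6.20, 15.04, 6.58, 11.8 and 10.4 CPM in Young 1 to 5. Old + YM 2, the highest library for Adipoq and Cfd, was also the highest for urothelium, and within Old the highest for both was Old 4. Among the 6 tested, r to Adipoq was 0.74 for Upk2, 0.70 for Psca, 0.69 for Upk1b, 0.62 for Upk3a, 0.46 for Upk1a and 0.31 for Krt5. The part of urothelium in the results of the fat genes was not tested. None of the 6 tested urothelium genes passed in any of the 4 comparisons.

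**Figure D4:**
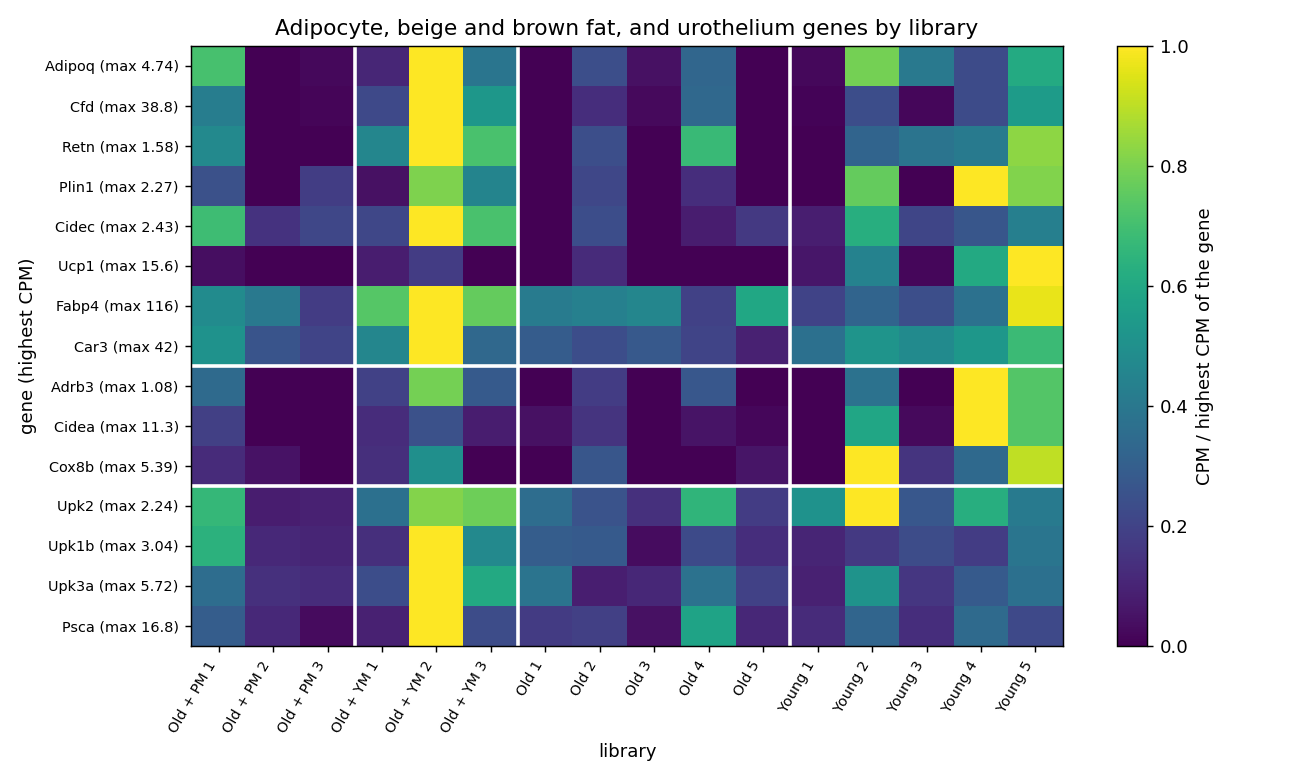
CPM of the 8 genes, of Adrb3, Cidea and Cox8b, and of 4 urothelium genes (rows, each divided by its highest CPM, given in brackets) in the 16 libraries (columns, by group). Old 1, Old 5 and Old + PM 2 are at or near 0 for Adipoq, Cfd and Adrb3, Old + YM 2 is high for most fat and urothelium genes, and Ucp1 is highest in Young 5.

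Further genes of fat cells were read from gene lists. Of 15 adipocyte identity genes 9 were tested and none passed in any comparison, with a median log2 change of 0.30 in Old against Young. Adrb3, the beta-3 adrenergic receptor through which noradrenaline drives fat breakdown, was too scarce to test. It had 4, 0 and 0 counts in Old + PM, 2, 7 and 3 in Old + YM, 0, 2, 0, 3 and 0 in Old, and 0, 4, 0, 10 and 6 in Young, so that the 9 libraries with a count were the 9 with at least 53 counts of Cfd. Plin4, Pparg and Rbp4 of the same list did not show this match. Old 5, at 0 for Adipoq, had 16 counts of Plin4 and 27 of Pparg. Rbp4 had its highest count, 59, in Old + PM 2, also at 0 for Adipoq. Lep, which encodes leptin, had 1 count in Young 5 and none in the other 15 libraries. Lipe, which encodes hormone-sensitive lipase, had 198 to 393 counts in every library, also in those at 0 for Adipoq.

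Of 13 brown and beige genes 7 were tested, and 1 passed, lower in Old than in Young, a share near the 13.6% of all tested genes that passed. It was Cox7a1, a cytochrome oxidase subunit, with 32.4 ± 2.57 CPM in Old, against 42.7 ± 6.00 CPM in Young (a log2 difference of -0.40, SE 0.13, adjusted p = 0.0485), and the call was lost in 9 of 10 fits that left out 1 library of these groups. Cidea had 0.601 ± 0.669 CPM in Old, against 5.32 ± 5.01 CPM in Young (a log2 difference of -3.10, SE 1.23, adjusted p = 0.117). Cox8b had 0.347 ± 0.622 CPM in Old, against 2.58 ± 2.42 CPM in Young (a log2 difference of -2.82, SE 1.21, adjusted p = 0.142). The log2 change of Old over Young was positive for 2 of the 7. Ppargc1a, for example, ran from 86.6 to 118.3 CPM in Old and from 81.3 to 103.4 CPM in Young, and the groups overlapped. Without Young 5, and likewise without Old 4, 1 gene of the list rose in Old and none fell. The median of the 7 was -0.31 in Old against Young, 0.29 in Old + YM against Old and -0.09 in Old + PM against Old, and none passed in the comparisons of treated mice.

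Of 7 fatty acid uptake genes 2 fell and 1 rose in Old, where 7.13% of all tested genes fell and 6.47% rose. Cd36, a fatty acid translocase, had 86.8 ± 8.01 CPM in Old, against 203 ± 18.5 CPM in Young (a log2 difference of -1.23, SE 0.12, adjusted p = 4.26e-06). Lpl, lipoprotein lipase, which frees fatty acids from circulating triglyceride, had 452 ± 114 CPM in Old, against 946 ± 130 CPM in Young (a log2 difference of -1.07, SE 0.16, adjusted p = 0.000341). Gpihbp1, the endothelial protein that anchors lipoprotein lipase in capillaries, had 26.7 ± 6.73 CPM in Old, against 11.6 ± 2.15 CPM in Young (a log2 difference of 1.20, SE 0.19, adjusted p = 0.000364). The groups did not overlap for these 3, and no alternative or left-out library ended their calls. All 3 were present in every library, also in those at 0 for Adipoq. The lowest values were 74.4 CPM for Cd36, 301.0 CPM for Lpl and 8.50 CPM for Gpihbp1. Their r to Adipoq was 0.37, 0.27 and -0.48. Which cells carried these transcripts was not tested.

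Of 17 fat synthesis genes 5 fell in Old and none rose, where 7.13% of all tested genes fell: Fasn, Scd2, Agpat2, Me1 and Thrsp, of which the last 4 were named after their values were seen. The Thrsp call (adjusted p = 0.0435) was lost with only the 2 groups in the fit (0.110), with no filter (0.0876) and under upper quartile scaling (0.0552). With 1 library left out, 2 (without Young 3 or Young 4) to 5 of the 17 fell. Fasn, fatty acid synthase, had 39.7 ± 18.5 CPM in Old, against 88.7 ± 18.1 CPM in Young (a log2 difference of -1.16, SE 0.25, adjusted p = 0.00627). Of 14 droplet and lipolysis genes Mgll, monoacylglycerol lipase, alone passed, with 95.5 ± 12.4 CPM in Old, against 69.4 ± 7.08 CPM in Young (a log2 difference of 0.46, SE 0.10, adjusted p = 0.00565). Median log2 changes were -0.29 for fat synthesis and -0.15 for droplets and lipolysis. The 5 genes that fell and Mgll had counts in every library. Their r to Adipoq ran from 0.19 (Agpat2) to 0.59 (Thrsp) for the 5, with 0.44 for Fasn, and was -0.31 for Mgll. Which cells carried these transcripts was not tested. In the treated groups no gene of any of these lists passed.

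Partners and relatives of the 8 proteins were read as well. Of 9 partner genes 2 rose in Old and none fell, where 13.6% of all tested genes passed, and both belong to the complement cascade. Cfd cleaves factor B once that protein is bound to a fragment of C3, and Cfb, which encodes factor B, averaged 371 ± 37.1 CPM in Old and 397 ± 29.7 CPM in Young without passing (log2 -0.10, SE 0.09, edgeR adjusted p = 0.541). The genes that rose were C3 (log2 2.73, SE 0.51, adjusted p = 0.00426, and 1.97 without Old 5), and Cfp, which encodes the stabilising protein properdin and was named after its value was seen (log2 1.82, SE 0.58, adjusted p = 0.0419, and 0.94 without Old 5, adjusted p = 0.265). Both receptors of adiponectin were expressed: Adipor1 stood at 41.0 ± 3.65 CPM in Old, against 46.6 ± 4.24 CPM in Young, and Adipor2 60.7 ± 4.82 CPM in Old and 70.0 ± 3.35 CPM in Young, and neither passed (adjusted p = 0.222 and 0.127).

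Of 25 family relatives 21 were tested, and 1 rose and 2 fell in Old, a share near the 13.6% of all tested genes. These were C1qtnf1, a relative of adiponectin (log2 0.59), and the carbonic anhydrases Car2 (log2 -0.32) and Car5b (log2 -0.32), all named after their values were seen. The Car2 call was lost in 9 of 10 and the Car5b call in 8 of 10 fits that left out 1 library. Ucp2, the relative of Ucp1 in many tissues, had 28.4 ± 9.79 CPM in Old, against 20.7 ± 2.95 CPM in Young (a log2 difference of 0.46, SE 0.18, adjusted p = 0.0983). Fabp3 had 108 ± 12.5 CPM in Old, against 118 ± 18.9 CPM in Young (a log2 difference of -0.13, adjusted p = 0.510). None of the relatives passed in the comparisons of treated mice.

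Lists of other cell types that a kidney sample can hold were read in Old against Young. Of 10 macrophage genes 8 rose, with a median log2 change of 1.78, where 6.47% of all tested genes were higher. Old 5 stood apart in these genes, as given above, and without it 6 rose and 1 fell, with a median of 1.02, while without any 1 Young library 4 to 5 rose. Among the 8, Mrc1, the mannose receptor, had 5.57 ± 3.70 CPM in Old, against 1.64 ± 0.694 CPM in Young (a log2 difference of 1.76, SE 0.40, adjusted p = 0.00628). Against the 13.6% of all tested genes that passed, of 10 endothelial genes 1 rose and 1 fell (median -0.01), and of 13 preadipocyte and stroma genes Pdgfra alone passed, named after its value was seen (log2 0.88, median of the list 0.20). Pdgfra did not pass without Young 1 or without Old 5. Mesothelium had 3 of 7 genes tested, of which 1 fell (Gpm6a, log2 -0.74). None passed among 1 tested skeletal muscle gene, 1 adrenal cortex gene, 6 urothelium genes, 5 blood genes and 5 lymphocyte genes. Of 8 liver genes 2 fell, and of 12 kidney segment genes 1 rose and 1 fell. No gene of any list passed in the other 3 comparisons.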

How the data were processed

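Kidney RNA of 16 libraries was sequenced with a QuantSeq 3' kit. The authors deposited raw read counts per gene symbol for each library, per the file headers. Bowtie2, bedtools and build mm10 are named, per the submitters' processing notes, and no version, annotation or strand setting is stated there or in the labels. Counts of different genes, as in the share of Ucp1 with Adipoq, were therefore set beside each other only to compare libraries.

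Counts were analysed with edgeR 4.0.16 in R 4.3.3: a filter (10 counts at the median library size in 3 libraries, total of 15), TMM scaling, 1 robust quasi-likelihood fit over the 4 groups and Benjamini-Hochberg adjustment over 14665 genes, with a threshold of 0.05 on the adjusted p. All printed p-values are two-sided. Alternatives were DESeq2 1.42.0, RLE and upper quartile scaling, no filter, no robust dispersions, only the 2 groups compared, a replicate block and leaving out each library. Likeness used log2 CPM with a prior count of 2. The fit was tested on simulated data, with changes made only in genes of higher mean count than Adipoq, Plin1, Cidec and Retn. That test therefore does not show how the fit performs for these genes. The members and lists were chosen with earlier results of these data known. Named were all 8 members, identity, brown fat and muscle genes, the 10 most like Adipoq, and per list up to 3 called genes of smallest p (10 per comparison). A count of 0 was read as a limit of 3 counts. No libraries held identical counts (highest r between libraries 0.994).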

Additional observations from a re-analysis of the deposited data

Results flagged for a closer look

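Ucp1 in Old 2, at 1.91 CPM, stood apart from the other 4 Old libraries, which were all at 0. It was the 1 such case among 16 pairs of a gene and a group of 5 libraries. The rule flags about 1 in 20 groups by chance where values are not tied. That rate does not apply here, since with 4 libraries at 0 any count in the fifth stands apart.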

How the results depend on the processing

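DESeq2 put 49 genes past the threshold in Old + YM against Old (1 of the 8 fat cell genes, Car3) and 58 in Old + PM against Old + YM. With no filter these comparisons had 6 and 8 genes, and none (0) of the 8 passed in Old against Young. A fit of only the 2 groups compared gave 20 and 13, and without robust dispersions 2 of the 8 passed in Old against Young. Fabp4 in Old against Young had a log2 change of -0.012 in DESeq2, -0.0048 under RLE scaling and -0.0091 with only the 2 groups.

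Replicate numbers did not pair the libraries: 2 of 20 same-number pairs had a correlation over 0.1 (median -0.0061), and 4 of 16 libraries were most like one of their own number. With the replicate block 6 genes passed in Old + YM against Old and 1 in Old + PM against Old + YM, and Retn in Old + PM against Old had a log2 change of 0.95.

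Leaving out 1 library gave 1208 (without Old 5) to 2655 (without Old 4) genes in Old against Young, with 0 to 1 of the 8, and 0 to 1 genes in Old + YM against Old. Log2 changes ranged from -0.18 to 0.59 for Fabp4 in Old against Young. In Old + PM against Old they ranged from -3.30 to 1.73 for Adipoq, -3.94 to 1.86 for Cfd, -4.57 to 1.26 for Retn, -4.96 to 3.98 for Ucp1 and -0.53 to 0.077 for Fabp4. The cause of these shifts was not tested. Adipoq, Retn, Plin1, Cidec and Ucp1 rest on few counts per library, which limits what the fits can show for them. Counts of list genes with 1 library left out were added after seeing the data.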
